A study of Rattus norvegicus with 15 samples.

Results

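Cardiomyocytes isolated from adult rat hearts (aCM, 3 libraries) were compared with cardiomyocytes isolated from neonatal hearts (nCM, 3 libraries), which makes 6 of the 15 RNA-seq libraries of a study of rat cardiac stem cells. Both groups came from Wistar rats. The nCM donors were at postnatal day 1 to 2 and the aCM donors were 12 weeks old, and the labels give no genotype, transgene or treatment for either group. Total RNA was depleted of ribosomal RNA, so transcripts without a poly(A) tail could be read too. The labels do not say how many hearts a library holds, whether hearts were pooled, or at what time of day they were taken, so the error in each test is the library-to-library spread and may be partly or wholly technical. The comparison covers all genes of the deposited count table, of which 16486 passed a filter on low counts.

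After birth, heart muscle cells leave the cell cycle and grow by enlargement. Their sarcomeres, the contractile units, switch from slow or embryonic to adult protein isoforms, and their sarcoplasmic reticulum comes to store and release most of the calcium that drives each beat. Fuel use moves from glucose and lactate toward fatty acids burned in mitochondria, while imprinted genes that promote fetal growth, led by Igf2, are shut down in many organs. The comparison of the 2 ages asks which of these transcripts differ between newborn and adult cells.

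Library totals were 43.3 M, 35.8 M and 35.8 M estimated counts in nCM and 21.9 M, 26.0 M and 20.7 M in aCM. Levels are in CPM, a library's counts brought to one shared total after TMM scaling, which sets each scale from the less variable genes. In these units 3 counts corresponded to between 0.0632 and 0.0771 CPM in nCM and to between 0.133 and 0.162 CPM in aCM. The labelled cell type was checked first against markers of heart muscle. All 7 cardiomyocyte markers tested (Myh6, Tnnt2, Actc1, Actn2, Ryr2, Pln and Nkx2-5) were detected in both groups, and all 7 rose, while 32.0% of all genes tested were called higher in aCM. Their summed level was 3727, 2633 and 1757 CPM in the nCM libraries and 118498, 108360 and 85651 CPM in the aCM libraries, a ratio of 38.5 between the group means. In bulk samples, fewer cells of a type and less RNA per cell cannot be told apart.

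Transcripts of other cells were also plentiful in nCM. There the erythroid and the fibroblast and matrix sums were each above the cardiomyocyte marker sums of 1757 to 3727 CPM. The lists differ in their number of genes, so these sums do not give shares of cells. The 9 erythroid markers, led by the globins that fill red blood cells, summed to between 25987 and 38847 CPM in nCM and to between 81.6 and 111 CPM in aCM, and all 9 fell, while 31.6% of all genes tested were called lower. The fibroblast and matrix markers summed to between 30364 and 36423 CPM in nCM and to between 5162 and 8972 CPM in aCM, and 18 of 20 fell. Within that list the fall was uneven. Postn, a matrix protein of developing and injured hearts, had levels of 3629, 4453 and 4765 CPM in nCM and 26.3, 21.4 and 25.2 CPM in aCM, whereas the resident fibroblast gene Dcn averaged 961 ± 33.3 CPM and 690 ± 259 CPM (SD, n = 3) and was not called (it was called lower with total counts or without aCM replicate 3). Among the endothelial markers 11 of 17 fell, with sums of 3934 to 4708 CPM in nCM and 2199 to 3138 CPM in aCM. Of 15 leukocyte markers 9 fell and 1, Cd74, rose. Their sums were 400 to 643 CPM in nCM and 443 to 548 CPM in aCM, and without Cd74 they were 360 to 590 CPM and 196 to 252 CPM. Smooth muscle and pericyte markers summed to between 1266 and 1397 CPM in nCM and between 1991 and 2642 CPM in aCM. The part of these other cells in the results that follow was not tested, and the cardiomyocyte marker median, a log2 fold change of 3.95, is given beside the lists of muscle genes as a yardstick from the same libraries. The 7 markers ranged from 1.59 to 7.20, and each is also a member of a list set beside them: 4 are sarcomere genes, 2 are genes of calcium cycling and 1 is a cardiac transcription factor.

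**Figure D1:**
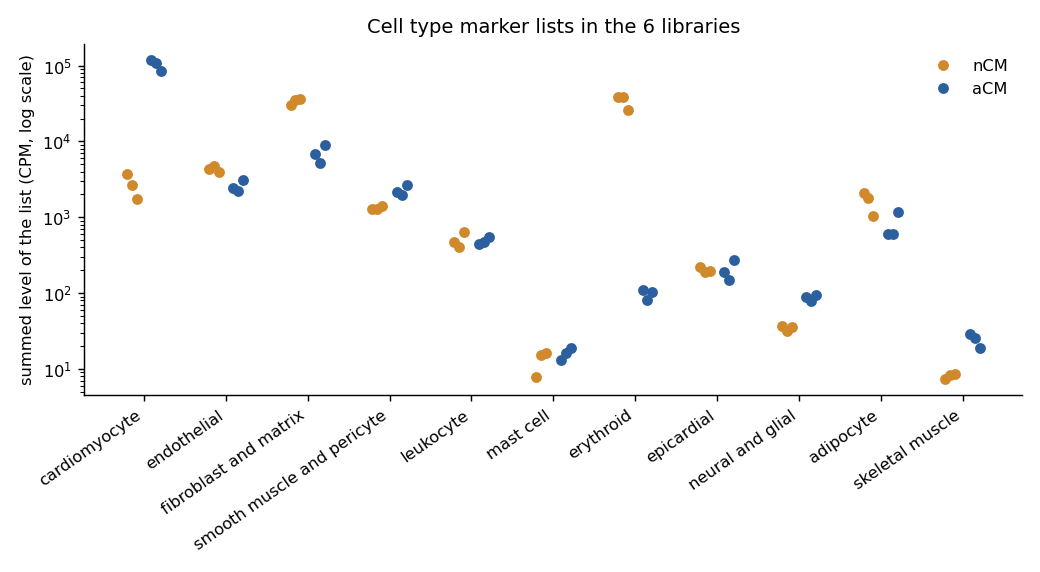
Summed level of each cell type marker list (CPM, log scale) in the 3 nCM libraries (orange) and the 3 aCM libraries (blue), 1 point per library. The cardiomyocyte sums lie between 1757 and 3727 CPM in nCM and between 85651 and 118498 CPM in aCM, and the erythroid sums lie between 25987 and 38847 CPM in nCM and between 81.6 and 111 CPM in aCM.

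Across the genome, 5273 genes were higher and 5205 lower in aCM by edgeR's quasi-likelihood test with Benjamini-Hochberg adjustment at 0.05, together 63.6% of the genes tested. Of these, 3290 rose and 2924 fell by at least 2-fold, and 278 rose and 163 fell by at least 16-fold. The even split belongs to the scaling: with total counts in place of TMM, 3678 genes were higher and 7310 lower, so that 33.5% of calls were upward, and the median log2 fold change of all genes moved from 0.01 to -0.36. The groups did not overlap for 68.6% of the genes tested, and 276 called genes had overlapping groups. Changes under 1.5-fold made up 1524 of the calls.

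The 12 largest rises among well-measured genes with a symbol were led by Ckmt2, the mitochondrial creatine kinase of striated muscle, which passes phosphate from newly made ATP to creatine. Its levels were 1.47, 1.49 and 0.521 CPM in nCM and 1751, 2020 and 1738 CPM in aCM, a log2 fold change of 10.62 ± 0.40 (SE). Ckmt1b, the form of other tissues, rose by 8.23 ± 0.20. Rpl3l, a ribosomal protein that replaces Rpl3 in striated muscle, was at 0.463, 0.308 and 0.588 CPM in nCM and at 145, 191 and 132 CPM in aCM, and Slc2a4, the insulin-responsive glucose transporter GLUT4, was at 4.11, 4.16 and 3.19 CPM against 1004, 840 and 738 CPM. Genes whose groups overlapped were left out of this ranking. The others of the 12 were Ces1d (9.06, and 9.94 without nCM replicate 2), a carboxylesterase, Tuba8 (8.08), an alpha tubulin, Gbp1 (7.96), an interferon-induced guanylate-binding protein, Hrc (7.91), which binds calcium in the sarcoplasmic reticulum, RGD1564265 (7.64), Myom2 (7.54), which crosslinks thick filaments, Plin4 (7.42), a lipid droplet coat protein, and Scn4b (7.38), a sodium channel subunit, each as a log2 fold change. Ckmt1b, Ces1d and Gbp1 belong to families with near-identical copies, where counting may have split reads.

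The 12 largest falls were mostly of genes known from blood cells, though the source of their transcripts in these libraries was not tested. They held 5 globin entries, of which Hba2 was at 17746, 17732 and 11384 CPM in nCM and at 27, 7.03 and 17.6 CPM in aCM, and Ahsp, the chaperone of alpha globin, at 44.4, 62.8 and 43 CPM against 0.47, 0 and 0.108 CPM. S100a8 and S100a9, calcium-binding proteins of neutrophils, were at 24.8 to 68.3 CPM and 55.8 to 149 CPM in nCM and below 0.5 CPM in each aCM library. Alox15, a lipoxygenase of reticulocytes and some leukocytes, had levels of 158, 475 and 621 CPM against 1.04, 1.02 and 0.755 CPM, and the stefin genes Stfa2 and Stfa2l3 had 3 counts or fewer in each aCM library, so that no fold is given for them. The remaining entry was the microRNA gene Mir675, described with the imprinted genes. Without aCM replicate 1, which held the highest globin levels of its group, the log2 fold change moved from -9.63 to -10.39 for Hbb-b1, from -9.55 to -10.19 for HBB, from -9.09 to -9.70 for Hba-a2 and from -8.64 to -9.33 for Hbb. Globin genes are near-identical copies, so their single values are uncertain.

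**Figure D2:**
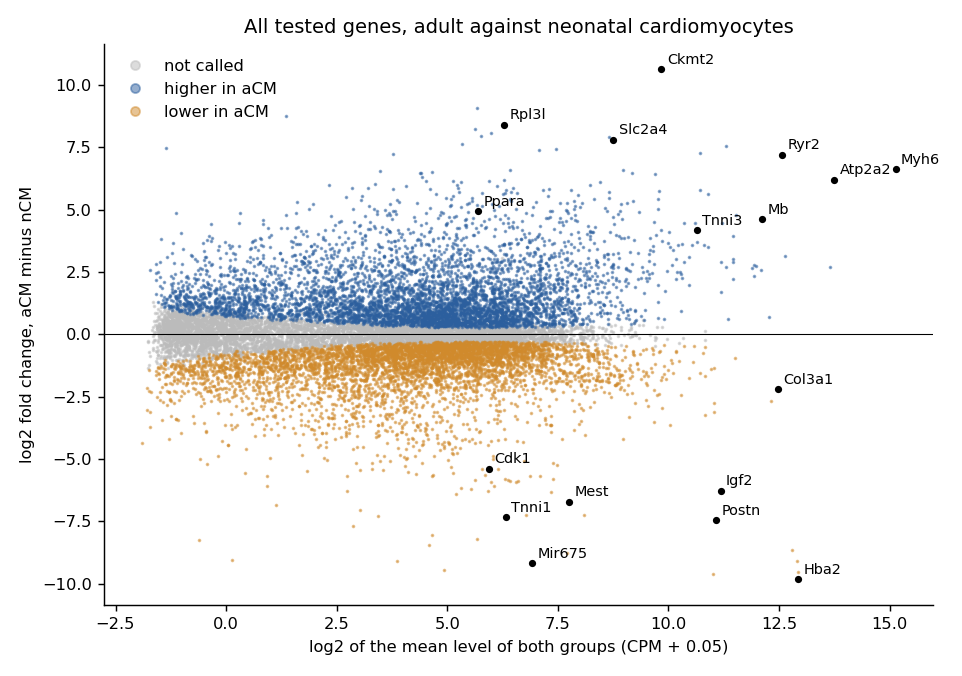
Log2 fold change (aCM minus nCM) against the log2 mean level of both groups (CPM + 0.05) for the 16486 genes tested, coloured by call, with some genes labelled in black. Myh6, Atp2a2 and Ryr2 stand at the upper right, Hba2 at the lower right, and 5273 genes lie above and 5205 below as called.

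Sarcomere genes rose in nearly all cases. Of 37 tested, 32 rose and 3 fell, with a median log2 fold change of 3.56 beside 0.01 for all genes and 3.95 for the cardiomyocyte markers, and 14 of the 37 rose by more than the latter. Myh6 (ENSRNOG00000025757), the fast alpha myosin heavy chain, had levels of 1003, 724 and 463 CPM in nCM and 84092, 72188 and 57787 CPM in aCM, and took between 5.18% and 7.34% of all counts of the aCM libraries. Its log2 fold change was 6.61 ± 0.43 (edgeR quasi-likelihood test with Benjamini-Hochberg adjustment, adjusted p = 1.02e-07). Cmya5, a myospryn scaffold of the costamere, rose by 7.27 ± 0.31 and Xirp2, an actin-binding repeat protein, by 6.46 ± 0.23. Actc1, the cardiac actin, rose by 3.13 ± 0.33, Tpm1, the main cardiac tropomyosin, by 2.88 ± 0.26 and Tnnc1, the calcium-sensing troponin C, by 2.52 ± 0.26. The 3 genes that fell were Tnni1, the troponin I of slow skeletal muscle and of the heart before birth, Tnnt1, slow skeletal troponin T, and Tpm2, beta tropomyosin.

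Troponin I gave the clearest switch. Tnni1 (ENSRNOG00000009073) was at 200, 171 and 106 CPM in nCM and at 0.783, 1.56 and 0.485 CPM in aCM, a log2 fold change of -7.35 ± 0.36 (adjusted p = 1.18e-08, edgeR's quasi-likelihood test with Benjamini-Hochberg adjustment), which became -7.98 without aCM replicate 2. Tnni3 (ENSRNOG00000018250), the adult cardiac form, was at 207, 172 and 124 CPM in nCM and at 2889, 3431 and 2790 CPM in aCM, a rise of 4.18 ± 0.25 (adjusted p = 5.08e-08, same test). Their log2 ratio within a library, Tnni3 over Tnni1, went from between 0.01 and 0.23 in nCM to between 11.11 and 12.49 in aCM.

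Other genes named for the fetal program did not follow Tnni1. Of 13 fetal-type cardiac genes tested, 9 rose and 2 (Tnni1 and Tnnt1) fell, and Tnnt1 was not called, or not tested, in 6 of the 15 alternatives run. The list median was 1.59 beside 3.95 for the cardiomyocyte markers, and 2 of the 13 rose by more than the latter. Nppa, which encodes atrial natriuretic peptide, was at 60.3, 31.4 and 43.3 CPM in nCM and at 1105, 439 and 788 CPM in aCM, and Nppb, the gene of brain natriuretic peptide, rose by 4.27 ± 0.30. Ankrd1, a stretch-responsive protein of the sarcomere, rose by 3.75 ± 0.31. Myh7, the slow beta myosin heavy chain that rodents replace after birth, was at 654, 546 and 440 CPM in nCM and at 2007, 7761 and 2592 CPM in aCM. Its log2 fold change of 2.91 ± 0.45 rested in part on aCM replicate 2 and was 2.05 without it. Acta1, the skeletal actin, averaged 343 ± 133 CPM and 460 ± 193 CPM (SD, n = 3) and was not called, except as higher without aCM replicate 3. Myl4, the atrial and embryonic light chain, was at 139, 65.8 and 43.5 CPM in nCM and at 123, 49.2 and 75.4 CPM in aCM, with overlapping groups. The fitted difference of Myl4 was -0.00 and became 0.59 without nCM replicate 1. Of the 6 atrial markers, 4 of which (Nppa, Myl7, Myl4 and Sln) are also in the fetal-type list, 5 rose, and their sums were 363, 183 and 202 CPM in nCM and 1849, 865 and 1396 CPM in aCM.

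Genes of calcium cycling rose in 20 of 27 cases, with a median of 2.50, and 10 rose by more than the cardiomyocyte marker median. Atp2a2, the SERCA2 pump that refills the sarcoplasmic reticulum, was at 397, 348 and 369 CPM in nCM and at 30972, 27131 and 23311 CPM in aCM, a log2 fold change of 6.19 ± 0.31. Ryr2, the calcium release channel of the sarcoplasmic reticulum, was at 95.5, 66.3 and 85.3 CPM in nCM and at 13725, 12154 and 10336 CPM in aCM, a rise of 7.20 ± 0.31. The partners of the release unit rose with them. Cacna1c, the L-type calcium channel pore, rose by 5.44 ± 0.23, Trdn (triadin), which anchors the release channel, by 5.29 ± 0.16 and Jph2, which ties the surface membrane to the sarcoplasmic reticulum, by 3.96 ± 0.24. By contrast Slc8a1, the sodium-calcium exchanger, rose by 1.89 ± 0.17, below the cardiomyocyte marker median, and Pln, the inhibitor of SERCA2, by 3.29 ± 0.28. The IP3 receptors Itpr1 and Itpr2, the T-type channel gene Cacna1g and the store-operated channel gene Orai1 were not called. Itpr2 and Orai1 became called as lower with total counts, and Itpr1 and Cacna1g as higher without nCM replicate 3. Calr, a calcium-binding chaperone of the endoplasmic reticulum, fell by 0.81 ± 0.17 on the log2 scale, Atp2b4, a plasma membrane calcium pump, by 1.04 ± 0.15 and Bin1, a membrane-bending protein of the T-tubules, by 2.01 ± 0.19. With total counts 5 genes of the list were lower instead of 3.

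Ion channels and pumps had the highest list median, 4.10, and 28 of 31 tested genes rose, 17 of them by more than the cardiomyocyte marker median. Kcnd2, a pore subunit of the transient outward potassium current, was at 0.548, 0.694 and 0.679 CPM in nCM and at 56.5, 41.1 and 38.7 CPM in aCM. Kcnip2, its accessory subunit, has 2 entries in the table, which rose by 5.13 ± 0.18 and 4.95 ± 0.23. No library of one age entered the range of the other for these genes. The connexin genes went different ways: Gja1, the ventricular gap junction protein connexin 43, rose by 3.22 ± 0.16, Gja5, connexin 40 of atria and conduction fibres, was at 21.6 ± 3.87 CPM and 21 ± 3.06 CPM (SD, n = 3) and was called, as lower, with total counts alone, and GJC1, connexin 45 of the early heart, fell by 0.83 ± 0.12 on the log2 scale. Hcn2 and Hcn4, which encode pacemaker channels, rose by 5.68 ± 0.21 and 2.47 ± 0.19. Genes of this list called lower numbered 1 in the main scaling, 2 with the authors' library factors or without aCM replicate 2, and 3 with total counts.

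Pairs of genes for 2 forms of the same protein were compared as ratios within each library, which no library scaling can move. Ratios between genes also carry their unknown lengths, so the difference between the ages is read here and not the ratio itself. The shifts given are differences between the fitted log2 fold changes of the 2 genes, which lie close to the differences of the mean ratios. In 16 of 16 pairs measured the ratio of the adult muscle form to the other form was higher in aCM, and in all 16 the 6 libraries separated by age without overlap. Single genes did not overlap in 68.6% of all those tested. The pairs were also chosen with earlier results known, for a muscle form, in libraries where all 7 cardiomyocyte markers rose. Apart from troponin I, the largest shifts were in the glucose transporters, where log2 of Slc2a4 over Slc2a1 rose by 7.44, in the fatty acid binding proteins, with Fabp3 over Fabp5 up by 7.03, and in the translation elongation factors, with Eef1a2 over Eef1a1 up by 6.77. In 3 pairs (troponin I, elongation factor and fatty acid binding protein) the first form fell while the second rose. Eef1a1, the general elongation factor, was at 9458, 9408 and 7797 CPM in nCM and at 1136, 1200 and 1882 CPM in aCM, and Eef1a2, its form in muscle and neurons, at 43.2, 35.2 and 20.7 CPM and at 540, 637 and 535 CPM. For cytochrome oxidase, Cox6a2 and Cox8b, the forms of striated muscle, rose by 5.24 ± 0.28 and 4.52 ± 0.31, while their general counterparts Cox6a1 and Cox8a were not called (0.09 ± 0.18 and -0.42 ± 0.22), although Cox8a was called lower without aCM replicate 3 (-0.65) or nCM replicate 3 (-0.64). Likewise Eno1 and Pgam1, the general enolase and phosphoglycerate mutase, were not called at 0.08 ± 0.21 and -0.08 ± 0.16 (Pgam1 was lower, at -0.45, with total counts), beside rises of 4.85 ± 0.27 for Eno3 and 5.01 ± 0.24 for Pgam2. The smallest shift was between the hexokinases, Hk2 over Hk1, at 1.42. The general forms are also made by the other cell types whose markers were higher in nCM, and the part of those cells in the ratios was not tested.

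**Figure D3:**
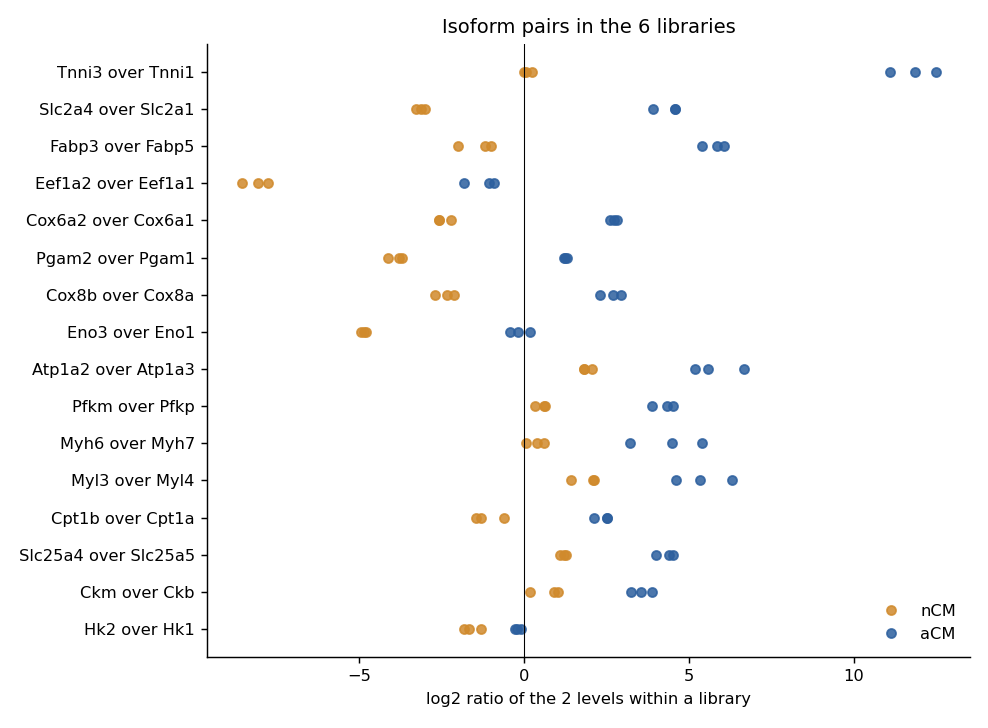
Log2 ratio of the levels of 2 related genes within each library (adult muscle form over the other form) for 16 pairs, in the 3 nCM libraries (orange) and the 3 aCM libraries (blue), ordered by the size of the shift. The aCM points lie to the right of the nCM points in all 16 pairs. The shifts, as differences of fitted log2 fold changes, run from 11.53 for troponin I down to 1.42 for the hexokinases.

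Genes of fatty acid use rose in 35 of 37 tested entries, with a median of 2.74. Of the 37, 8 rose by more than the cardiomyocyte marker median of 3.95. Lpl, the lipase that frees fatty acids from circulating lipoproteins, was at 239, 213 and 169 CPM in nCM and at 6094, 5341 and 5593 CPM in aCM. Fabp3, which carries fatty acids through the cytosol, rose by 4.17 ± 0.33, and Acsl1, which activates them with coenzyme A, by 5.03 ± 0.23. Cpt1b, the muscle gate of mitochondrial entry, was at 43.9, 27.1 and 25.6 CPM and at 1054, 907 and 745 CPM, and Acacb, whose product malonyl-CoA inhibits that gate, rose beside it, by 5.47 ± 0.21. The acyl-CoA dehydrogenases Acadm, Acadl, Acadvl and Acads rose by between 2.79 and 3.96. Cd36, the main fatty acid uptake protein, averaged 1728 ± 509 CPM in nCM and 1898 ± 187 CPM in aCM (SD, n = 3) and was not called, though endothelial cells and fat cells carry it as well. Angptl4, a secreted inhibitor of Lpl, was the gene that fell, by 4.51 ± 0.28 on the log2 scale.

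Mitochondrial genes moved more evenly and by less than the sarcomere. All 39 tested entries of complex I, the NADH dehydrogenase, rose, by between 1.31 and 3.85, with a median of 2.10, and none reached the cardiomyocyte marker median. Of complexes II to IV 25 of 27 rose (median 2.02), of the ATP synthase 14 of 15 (median 1.70) and of the citrate cycle and pyruvate oxidation 22 of 22 (median 2.71). Sdha, the flavoprotein of complex II, was at 174, 135 and 95.8 CPM in nCM and at 1301, 1500 and 1385 CPM in aCM, and Atp5a1, the alpha subunit of the ATP synthase, at 818, 684 and 521 CPM and at 4124, 4893 and 4136 CPM. Atp5g2, 1 of 3 genes for the same rotor subunit, was not called (-0.08 ± 0.18, and lower at -0.44 with total counts), whereas Atp5g1 rose by 2.99 ± 0.23. Ketone and branched-chain amino acid use showed 9 rises and 2 falls among 11 genes. Oxct1 and Bdh1, which burn ketone bodies, rose by 4.45 ± 0.20 and 4.71 ± 0.25. Bcat1, the cytosolic branched-chain transaminase, fell by 2.59 ± 0.23, and its mitochondrial counterpart Bcat2 rose by 2.06 ± 0.13.

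Glycolysis was less uniform. Among 29 genes of glycolysis and glycogen 19 rose, 2 fell and 8 were not called, with a median of 1.35, and with total counts 4 were lower. Of the 29, 5 rose by more than the cardiomyocyte marker median of 3.95. The rises were largest for muscle forms (Slc2a4, Pgam2, Eno3 and Pygm, the muscle glycogen phosphorylase, at 7.81, 5.01, 4.85 and 4.49). Ldhb, the heart form of lactate dehydrogenase, rose by 3.59 ± 0.22 and Ldha, the form of glycolytic tissue, by 1.29 ± 0.19. Slc16a1, the lactate importer MCT1, rose by 3.98 ± 0.18, and Slc16a3, the lactate exporter MCT4, fell by 1.59 ± 0.19 on the log2 scale. Pygl, the liver glycogen phosphorylase, fell by 2.23 ± 0.22. Of the 8 genes of energy transfer 7 rose, among them Mb, the oxygen store myoglobin, from 399, 385 and 264 CPM to 8225, 8803 and 8509 CPM, and Ckm, the cytosolic muscle creatine kinase, by 4.11 ± 0.28. Slc25a5, the general ADP/ATP carrier, was not called (-0.10 ± 0.20, and lower at -0.46 with total counts).

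Regulators of metabolism rose in 17 of 21 entries, with a median of 2.45, and 3 rose by more than the cardiomyocyte marker median of 3.95. Ppara, the nuclear receptor that drives fatty acid genes, was at 3.2, 2.75 and 3.85 CPM in nCM and at 105, 116 and 80.4 CPM in aCM (log2 fold change 4.94 ± 0.19, adjusted p = 2.67e-09 by edgeR's quasi-likelihood test with Benjamini-Hochberg adjustment). Thrb, a thyroid hormone receptor, was at 3.29, 4.37 and 4.25 CPM and at 81.8, 87.3 and 76.7 CPM, whereas the related Thra averaged 54.5 ± 3.12 CPM and 64.6 ± 3.72 CPM (SD, n = 3) and was not called. The coactivators Ppargc1a and Ppargc1b rose by 3.46 ± 0.18 and 3.40 ± 0.17, and their partners Esrra, Esrrb and Esrrg by 2.45, 3.45 and 3.13. Factors that act on mitochondrial biogenesis in most tissues stood apart from these: Tfam, which packs mitochondrial DNA, rose by 0.75 ± 0.14, Nrf1 fell by 0.95 ± 0.15 and Gabpa by 0.41 ± 0.15 on the log2 scale. The call of Gabpa was lost under the block of replicate numbers and without aCM replicate 1, nCM replicate 1 or nCM replicate 2. Among 22 receptor entries 13 rose and 6 fell (59.1% and 27.3%, beside 32.0% and 31.6% of all genes tested). Adra1a, the alpha-1A adrenergic receptor, and Chrm2, the muscarinic receptor of the vagus, rose by 5.88 ± 0.24 and 5.46 ± 0.15, and Egfr and Fgfr2, growth factor receptors, fell by 2.09 ± 0.18 and 2.15 ± 0.20 on the log2 scale.

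Transcription factors of the heart varied less than the genes of contraction and fuel. Of 19 tested, 12 rose and 2 fell, with a median of 0.73, and none (0) rose by more than the cardiomyocyte marker median of 3.95. Gata4 (79.4 ± 3.07 CPM and 82.8 ± 7.4 CPM) and Mef2c (62.3 ± 7.2 CPM and 66.4 ± 5.59 CPM, SD, n = 3), both activators of sarcomere genes, were not called, though Gata4 was lower with total counts (-0.32). Tbx5, a factor of atria, left ventricle and conduction system, was at 4.57, 4.06 and 4.16 CPM in nCM and at 33.5, 26.3 and 24.5 CPM in aCM, and Myocd, the coactivator myocardin, rose by 2.88 ± 0.18. Tbx20 fell by 0.52 ± 0.14 and Hey1 by 0.75 ± 0.23 on the log2 scale. Of 20 splicing regulators 9 rose (45%) and 7 fell (35%), beside 32.0% and 31.6% of all genes tested, and with total counts 4 rose. Rbfox1, which promotes muscle exons, was at 2.36, 2.06 and 2.35 CPM in nCM and at 81.7, 107 and 88.8 CPM in aCM. Rbm20, the regulator of titin splicing, rose by 3.60 ± 0.22, and Ptbp1, which represses muscle exons, fell by 2.08 ± 0.17. Hnrnpu, a general RNA-binding protein, was called lower at -0.48 ± 0.15, a call lost under the block of replicate numbers and without aCM replicate 1 or nCM replicate 2.

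**Figure D4:**
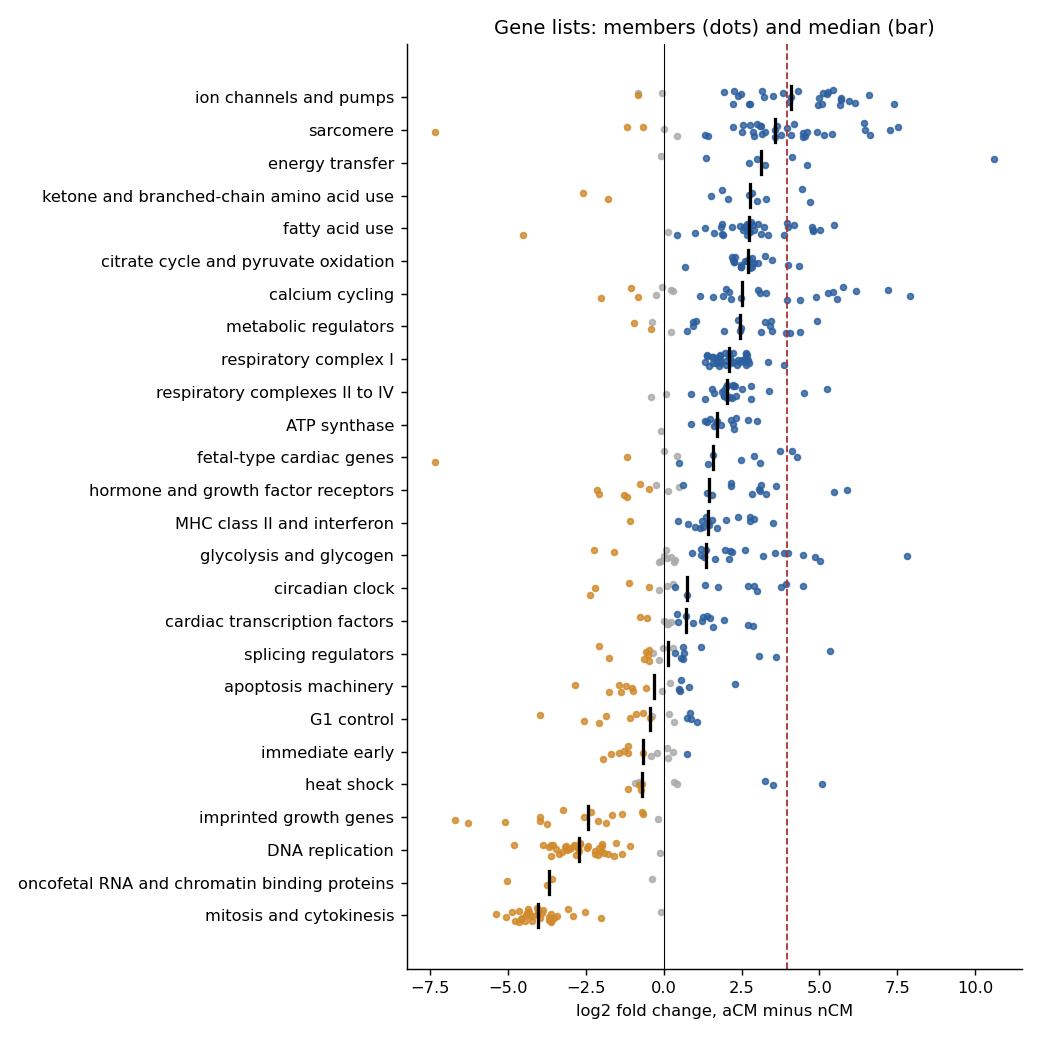
Log2 fold change (aCM minus nCM) of each tested member of the 26 gene lists that are not cell type markers (points, blue called higher, orange called lower, grey not called), with the list median as a black bar and the cardiomyocyte marker median of 3.95 as a dashed line. List medians run from 4.10 for ion channels and pumps down to -4.04 for mitosis and cytokinesis.

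Genes of the cell cycle fell. Of 35 genes of mitosis and cytokinesis 34 fell, with a median log2 fold change of -4.04, and of 37 genes of DNA replication 36 fell, with a median of -2.71. Cdk1 (ENSRNOG00000000632), the kinase that starts mitosis, was at 127, 141 and 89.9 CPM in nCM and at 2.5, 2.31 and 3.78 CPM in aCM, a log2 fold change of -5.39 ± 0.24 (adjusted p = 6e-09, edgeR's quasi-likelihood test with Benjamini-Hochberg adjustment). Kif23, a motor of the cytokinetic midbody, was at 136, 137 and 107 CPM and at 3.5, 4.31 and 5.07 CPM, and Mki67, the proliferation marker Ki-67, at 475, 600 and 499 CPM and at 36.2, 21 and 37.4 CPM. In none of these did the ages overlap. Among the replication genes Pcna, the sliding clamp of DNA polymerases, fell from 353, 359 and 284 CPM to 60.3, 72 and 122 CPM, a log2 fold change of -1.97 ± 0.24, and Rrm1, the large subunit of ribonucleotide reductase, by 1.60 ± 0.14, while its partner Rrm2 fell by 4.79 ± 0.18. The 2 exceptions were Aurka, a mitotic kinase, at 34.7 ± 0.671 CPM and 33 ± 4.68 CPM, and Gins2, part of the replicative helicase, at 21.1 ± 0.562 CPM and 19.3 ± 1.74 CPM (SD, n = 3), both with overlapping groups. With total counts both were called lower, at -0.45 and -0.51. These transcripts belong to any dividing cell, and the fibroblast, endothelial and erythroid marker sums were also higher in nCM, so whose cell cycle they report was not tested.

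Genes of G1 control showed 4 rises and 8 falls among 15 (26.7% and 53.3%, beside 32.0% and 31.6% of all genes tested). Rb1 and Rbl2, pocket proteins that hold cells out of the cycle, rose by 0.88 ± 0.11 and 1.08 ± 0.12, and the related Rbl1 fell by 2.57 ± 0.22 on the log2 scale. The D cyclins differed as well: Ccnd2 rose by 0.85 ± 0.12, Ccnd1 fell by 1.09 ± 0.21 and Ccnd3 by 0.43 ± 0.13. The cell cycle inhibitors Cdkn1a and Cdkn2c did not rise with age: Cdkn1a fell by 0.87 ± 0.13 and Cdkn2c fell by 2.07 ± 0.18. The call of Ccnd2 was lost with all 12 libraries in the fit and that of Ccnd3 without nCM replicate 1. Apoptosis genes fell in 8 of 16 entries (50%, against 31.6% of all genes tested). They rose in 5 (31.2%, against 32.0% of all genes tested), or in 2 with total counts. Apaf1, the scaffold that activates caspase 9, fell by 1.44 ± 0.12, while Endog, a mitochondrial nuclease, rose by 2.28 ± 0.16.

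**Figure D5:**
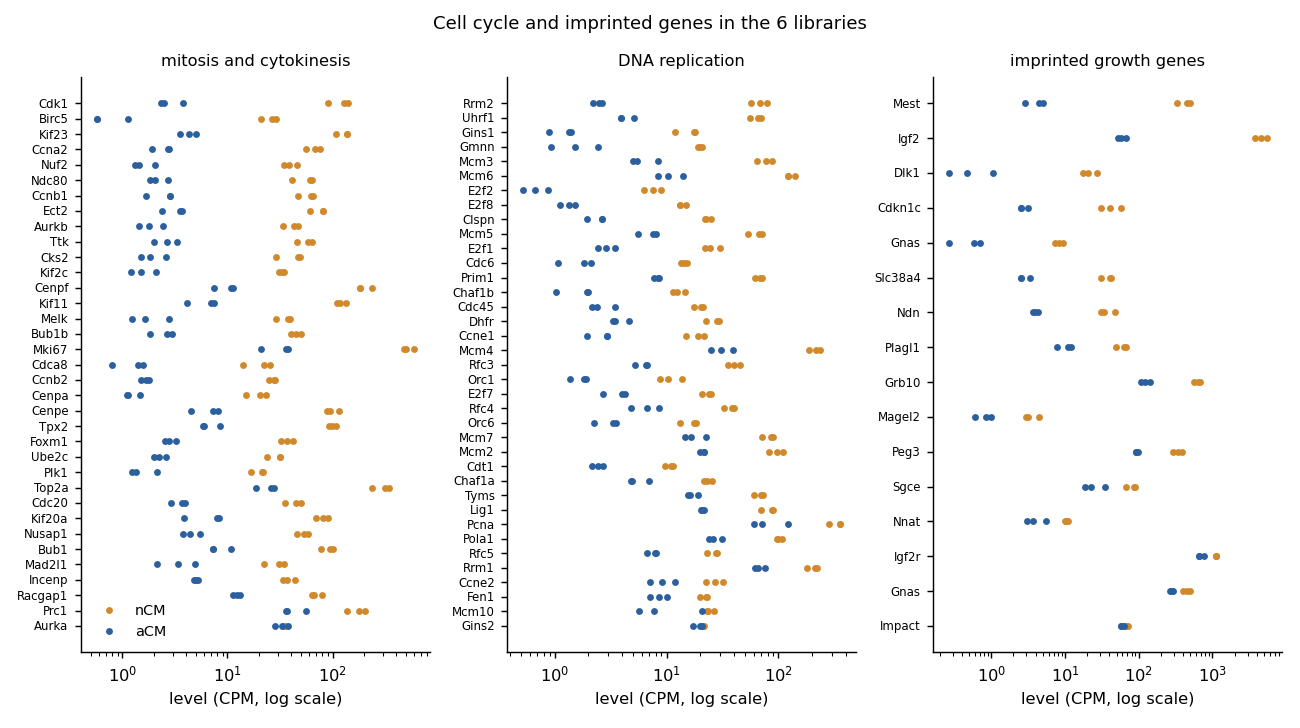
Levels (CPM, log scale) of the tested genes of mitosis and cytokinesis, DNA replication and imprinted growth genes in the 3 nCM libraries (orange) and the 3 aCM libraries (blue), ordered within each list by log2 fold change. Blue points lie to the left of orange points except where the groups overlap, as for Aurka and Gins2. Gnas has 2 entries.

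Mitotic genes are known to share promoter elements, the CHR (cell cycle genes homology region, TTTGAA) and CCAAT boxes, through which the DREAM complex and NF-Y act. Promoters of 250 bases before to 50 bases after the annotated start (RefSeq, GRCr8) were found by symbol for 28 of the 35 mitosis genes and searched on both strands. TTTGAA was present in 20 of the 28 (71.4%), CCAAT in 20 (71.4%) and both in 16 (57.1%), while among all 33469 promoters of the same length the shares were 18.3%, 37.5% and 7.41%. The 28 promoters of DNA replication genes held CCAAT in 19 cases (67.9%) and TTTGAA in 1 (3.57%). Within 50 bases of the start, TTTGAA stood in 15 mitosis promoters (53.6%), in none of the replication promoters (0 of 28) and in 5.19% of all promoters. The 2 motifs overlapped in 2 of the mitosis promoters. These matches describe letters in a window and do not show binding. The promoters below are of the 4 genes that fell most (by 4.55 to 5.39 on the log2 scale) among the 16 with both motifs. They are written 5′ to 3′ along the gene, with TTTGAA and CCAAT on either strand in capitals (CCAAT on the other strand reads ATTGG).
Cdk1 promoter (chr20:19265043-19265342, plus strand): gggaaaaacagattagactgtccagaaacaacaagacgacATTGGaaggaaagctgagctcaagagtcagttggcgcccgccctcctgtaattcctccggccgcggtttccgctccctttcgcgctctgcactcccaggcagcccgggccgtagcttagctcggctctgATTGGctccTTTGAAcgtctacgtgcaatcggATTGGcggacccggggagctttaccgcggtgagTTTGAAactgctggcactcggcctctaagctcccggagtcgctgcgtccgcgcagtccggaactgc
Birc5 promoter (chr10:103571896-103572195, plus strand): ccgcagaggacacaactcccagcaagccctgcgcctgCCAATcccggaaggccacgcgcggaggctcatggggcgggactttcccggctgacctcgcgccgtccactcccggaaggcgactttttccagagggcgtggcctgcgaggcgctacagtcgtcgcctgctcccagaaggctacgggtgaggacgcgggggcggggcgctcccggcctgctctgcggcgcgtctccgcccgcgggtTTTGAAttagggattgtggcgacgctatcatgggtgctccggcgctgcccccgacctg
Kif23 promoter (chr8:71320535-71320834, minus strand): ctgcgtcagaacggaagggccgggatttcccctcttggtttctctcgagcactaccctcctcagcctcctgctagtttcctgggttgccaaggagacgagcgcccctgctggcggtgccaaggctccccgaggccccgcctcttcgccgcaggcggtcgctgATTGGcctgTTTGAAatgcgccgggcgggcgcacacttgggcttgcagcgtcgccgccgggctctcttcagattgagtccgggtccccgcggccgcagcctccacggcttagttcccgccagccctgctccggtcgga
Ect2 promoter (chr2:111966577-111966876, minus strand): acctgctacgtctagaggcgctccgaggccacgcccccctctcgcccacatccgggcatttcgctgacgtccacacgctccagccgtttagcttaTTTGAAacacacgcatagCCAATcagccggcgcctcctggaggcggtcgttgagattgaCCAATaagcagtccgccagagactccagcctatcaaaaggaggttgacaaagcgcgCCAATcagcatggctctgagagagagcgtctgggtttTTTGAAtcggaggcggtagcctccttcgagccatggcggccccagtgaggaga
In Cdk1 the motif TTTGAA starts 72 and 16 bases before the annotated start of the gene, and CCAAT boxes, read on the other strand, start 210, 81 and 49 bases before it. Birc5 (survivin, which corrects chromosome attachment) has TTTGAA 8 bases before its start, Kif23 79 bases before and Ect2, the exchange factor that triggers the cleavage furrow, 155 and 3 bases before. A separate motif, TNAAGGTCA, to which estrogen-related receptors are known to bind, was found in 1.2% of all promoters. It was in 1 promoter each of complex I (of 34), complexes II to IV (of 21) and the ATP synthase (of 14), and in no promoter of the fatty acid (0 of 28) or citrate cycle (0 of 20) genes.

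Imprinted genes of fetal growth fell together. Of 16 tested entries 15 fell, with a median log2 fold change of -2.44, and Impact, a regulator of translation, was not called except with total counts. Igf2 (ENSRNOG00000020369), the fetal insulin-like growth factor, was at 5417, 4561 and 3758 CPM in nCM and at 57.7, 51.6 and 67.4 CPM in aCM, a log2 fold change of -6.28 ± 0.27 (adjusted p = 4.62e-09, edgeR's quasi-likelihood test with Benjamini-Hochberg adjustment). Mest, a hydrolase-like protein of mesoderm, was at 454, 496 and 331 CPM and at 4.38, 2.85 and 5.02 CPM. Dlk1, a Notch ligand homologue, fell by 5.10 ± 0.34 on the log2 scale, or by 5.87 without aCM replicate 2. The list held growth inhibitors too: Grb10, an adaptor that dampens insulin signalling, fell by 2.32 ± 0.17, the cyclin kinase inhibitor Cdkn1c by 3.99 ± 0.25 and Igf2r, which removes Igf2, by 0.68 ± 0.16. Of the 4 oncofetal binding proteins tested, Igf2bp1, Igf2bp2 and Hmga2 fell, and Hmga1 was not called but was lower in 4 of the alternatives. Igf2bp2, which binds Igf2 and other messages, was at 68.1, 63.3 and 55.6 CPM in nCM and at 4.85, 4.54 and 4.58 CPM in aCM. Igf2, Dlk1 and Mest are also made by fetal and neonatal fibroblasts, whose marker sum was 30364 to 36423 CPM in nCM and 5162 to 8972 CPM in aCM, and the part of those cells was not tested.

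Among the microRNA genes of the table, 35 entries were tested, of which 12 fell, 4 rose and 19 were not called. Of all genes tested 31.6% were called lower and 32.0% higher, so the number of falls is near the share of all genes. Such libraries read precursors and host transcripts, not the mature microRNA. Mir675 (ENSRNOG00000040350), which is cut from the imprinted noncoding RNA H19, was at 309, 245 and 173 CPM in nCM and at 0.104, 0.711 and 0.378 CPM in aCM, a log2 fold change of -9.18 ± 0.39 that became -9.98 without aCM replicate 2. The entry rno-mir-127, from the imprinted cluster that also holds Dlk1 and Meg3, was chosen after its values were seen. It was at 28.4, 45 and 37.8 CPM and at 2.56, 1.42 and 1.51 CPM, a log2 fold change of -4.34 ± 0.25. H19 and Meg3 themselves were not analysed here. The mature sequences of these 2 genes are shown, because both genes lie in imprinted regions, with the seed (bases 2 to 8) in capitals (RefSeq, GRCr8).
rno-miR-675-5p: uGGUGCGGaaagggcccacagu
rno-miR-675-3p: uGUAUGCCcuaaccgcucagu
rno-miR-127-3p: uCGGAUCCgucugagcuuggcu
The 3 seeds differ from each other, and each is held by 1 rat mature microRNA of the RefSeq set.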

How the data were processed

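RNA-seq of 3 aCM and 3 nCM libraries was used, out of 12 libraries in the count table. For each Ensembl gene of the rat the authors deposited estimated counts and log2 normalized columns that were used here only to recover the authors' library factors. Per the submitters' processing notes DESeq was used. Aligner, counting program, strand setting and genome build: not given in the sources used here. For this reason overlapping genes and near-identical copies are uncertain. The table holds 26276 genes, 5794 of them without a symbol, and 1 unnamed line with 0.0 counts.

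Estimated counts were rounded. Genes were kept by filterByExpr (minimum count 10), which left 16486 and removed 9790, libraries were scaled by TMM, and aCM was tested against nCM with edgeR's robust quasi-likelihood test on the 6 libraries, with Benjamini-Hochberg adjustment over all genes at 0.05. The cardiac stem cell libraries entered an alternative alone. SE is the log2 fold change divided by the root of its F statistic. A count of 3 sets a floor that covers counting error only. No 2 libraries of a group were within sampling noise (median chi-square per gene 2.17 to 8.45, 0.455 by chance). On simulated counts, 90% of 100 genes changed by 1 on the log2 scale and 99% of 100 changed by 2 were recovered. That fit held 16322 genes and gave 17 false calls. Only those genes were changed in the simulation, up and down alike, whereas 63.6% of genes were called in the data. It therefore cannot show the rate of false calls or the error of scaling in this comparison. Tools were R 4.3.3, edgeR 4.0.16, limma 3.58.1, DESeq2 1.42.0, matplotlib 3.10.9, numpy 2.4.6, pandas 2.3.3 and Python 3.11.15.

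The 38 gene lists (669 distinct genes, 653 found), the 17 isoform pairs and the rule for named genes were chosen with earlier results of these data known. The rule names the 12 largest rises and falls among called genes with a symbol, no overlap and a mean of at least 20 CPM in the higher group, and in each list the 3 largest called changes and the gene of highest CPM, with both genes of each pair and the 3 genes of highest CPM in each group. Other list members are named as examples, and some genes that the rule names are not reported here. Symbols were matched to RefSeq for promoters and microRNAs. Alternatives were another set of libraries, scaling, tool, filter, depth, a block of replicate numbers and leaving out each library.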

Additional observations from a re-analysis of the deposited data

How the results depend on the processing

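Across 15 alternatives no named gene changed direction past the threshold. Calls numbered 3678 to 5301 higher and 4833 to 7310 lower over the alternatives that kept all libraries, and 4692 to 5216 higher and 4708 to 5434 lower when 1 library was left out, while genes past 2-fold numbered 5650 to 6804 and 6047 to 6656. DESeq2 gave 5067 higher and 5220 lower, the fit of all 12 libraries 5301 and 5493, and the authors' library factors 4718 and 5624. The shift toward lower calls with total counts follows from its scale, on which the median gene lies at -0.36. Of the calls reported, between 84.8% (total counts) and 98.8% (RLE scaling) were shared. The labels number the libraries 1 to 3 in both groups and do not say whether equal numbers mark pairs. Same-numbered libraries did not deviate together (correlations of -0.155, -0.073 and -0.200), so the numbers were not taken as pairs. With deviations from the mean of only 3 libraries, this cannot exclude a shared preparation. With the replicate block 4872 genes were higher and 4833 lower, and 92.2% of calls were shared. Single calls that did not hold everywhere include Fos (adjusted p = 0.0544 with all 12 libraries), Fabp4 (0.0517 without aCM replicate 1), Bhlhe40 (0.127 without aCM replicate 1), and Myh3 and Myh8 (0.11 and 0.116 with all 12 libraries), by edgeR's quasi-likelihood test with Benjamini-Hochberg adjustment. Bcl2l1, Nr3c1 and Nr4a1 lost their calls with total counts. Among 656 list genes tested, 54 lost a call in at least 1 alternative, and none (0) was called in opposite directions. Depth limits genes near 3 counts, such as Hmga2 in aCM, and aCM libraries were the shallower.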

Other observations

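Clock and stress genes also differed between the ages. Of 17 circadian genes 10 rose and 4 fell (58.8% and 23.5%, beside 32.0% and 31.6% of all genes tested). Dbp, an output factor of the clock, was at 6.15, 7.45 and 7.94 CPM in nCM and at 161, 156 and 159 CPM in aCM, and Nr1d1, a repressor of the clock, rose by 3.76 ± 0.19 on the log2 scale. Arntl, the activator of the clock loop, fell by 2.38 ± 0.20, as did Nfil3, which competes with Dbp, by 2.20 ± 0.12. The hour of sampling is not given for either age, so age and time of day cannot be told apart. Immediate early genes, which respond to cell isolation among other stimuli, fell in 7 of 13 cases and rose in 1 (Nr4a1, lost with total counts). Fosb was at 897, 1283 and 1261 CPM in nCM and at 279, 293 and 317 CPM in aCM. Fos was at 1970, 2377 and 1902 CPM and at 808, 822 and 1217 CPM and lost its call in the fit of all 12 libraries. Of 11 heat shock entries 3 rose and 4 fell, near the shares of all genes tested (32.0% and 31.6%). The small heat shock proteins Hspb6, Cryab and Hspb7 rose by 5.09 ± 0.18, 3.51 ± 0.25 and 3.24 ± 0.20, while Hspb1 was not called (0.32 ± 0.18). The chaperones Hsp90aa1 and Hspa8 fell, by 1.15 ± 0.16 for the former and by 0.73 ± 0.18 and 0.79 ± 0.17 for the 2 entries of the latter.

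Antigen presentation and interferon genes rose in 17 of 18 cases (94.4%), beside 32.0% of all genes tested. The calls of RT1-Ba, RT1-Da, RT1-Db1, Ifit3 and Tap1 were lost with total counts. All of these but Ifit3 also lost their calls without aCM replicate 3. Cd74, the invariant chain of MHC class II, was at 27.6, 39.5 and 53.2 CPM in nCM and at 248, 273 and 296 CPM in aCM, while the leukocyte list it also belongs to rose in 1 of 15 genes and fell in 9. Mx2, an antiviral GTPase, was at 2.57, 5.14 and 5.88 CPM and at 41.9, 75.6 and 37.7 CPM. Irf1 fell by 1.09 ± 0.21. Among the neural and glial markers 6 of 8 rose (75%, beside 32.0% of all genes tested). The call of S100b was lost with RLE scaling, with all 12 libraries or without any 1 of the aCM replicates, and that of Dbh with total counts. Myh11, the smooth muscle myosin, was at 105, 98.4 and 121 CPM and at 703, 671 and 883 CPM. Among 9 epicardial markers 6 rose and 3 fell (66.7% and 33.3%, beside 32.0% and 31.6% of all genes tested), so the falls are near the share of all genes. Upk3b rose by 1.74 ± 0.29 and Wt1 fell by 0.65 ± 0.13. Of the mast cell markers 3 of 6 rose (50%): Tpsb2, Ms4a2 and Fcer1a, which averaged 2.91, 2.08 and 1.03 CPM in aCM. Cpa3, the most abundant of them, was not called (-0.11 ± 0.26). Of the skeletal muscle markers 4 of 8 rose (50%), or 1 with all 12 libraries in the fit. The call of Actn3 was also lost with DESeq2, total counts, the authors' library factors, no filter, equal depth or the replicate block. It was lost too without aCM replicate 1 or 2 or without any 1 of the nCM replicates, and a stricter filter left Actn3 untested. Adipocyte markers rose in 2 of 6 cases (33.3%, near the share of all genes), or in 1 with total counts, a stricter filter or without aCM replicate 1, and 1 (Fabp4) fell, a call lost without aCM replicate 1. The entry Harbi1 (ENSRNOG00000043204 in the table) was among the 3 entries of highest CPM in aCM, at 23227, 22565 and 21677 CPM against 4065, 3907 and 2486 CPM in nCM. The strand setting of the counting is not given, so these reads may belong to another, overlapping transcript. The microRNA entry Mir208b, which lies in an intron of Myh7 and was chosen after its values were seen, was at 0, 0.0257 and 0 CPM in nCM and at 6.99, 6.14 and 1.78 CPM in aCM. Reads of its host transcript cannot be told apart from its own.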
